A study of Mus musculus with 18 samples.

Results

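Colon crypt epithelial cells of conventionally raised WT mice (CONV-WT) were compared with those of germ-free WT mice (GF-WT), using the 3 RNA-Seq libraries that the labels gave to each group, 6 of the 18 libraries of the study. Both groups carried the WT genotype, and neither received a treatment. The labels gave the strain as C57BL/6 and the study's methods as C57BL/6J. CONV-WT mice lived in a specific-pathogen-free facility with an ordinary microbiota. Isolators housed the GF-WT mice, whose line had been made germ-free by rederivation. Microbial state and housing therefore cannot be told apart. A further WT group, COLONIZED-WT, was used to show where CONV-WT differed from it and entered 1 alternative fit, over all 18 libraries. It comprised germ-free mice that received cecal contents of CONV-WT donors by gavage and were examined 14 days later. The other libraries of the study carried a deletion label and entered only that fit over all 18 libraries, which called 2056 genes. Age, sex, the hour of collection and the segment of colon were not in the labels. The crypts were shaken free from colon tissue in EDTA and intact crypts were kept on a strainer that lets smaller fragments pass. The cell types of these crypts were measured as 1 pool, and cells lost from them were not. A lower value may thus reflect fewer cells of a type or less RNA per cell, and these cannot be told apart.

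The colonic crypt is a blind tube of epithelium. Stem cells at its base divide under Wnt signals and give rise to absorptive colonocytes, which recover salt and water, and to secretory cells, among them goblet cells, tuft cells and enteroendocrine cells. Goblet cells fill with mucin and with small defence proteins, and their large secretory load depends on the endoplasmic reticulum (ER). Germ-free mice are known for an immature mucus barrier and a slow renewal of the colonic epithelium.

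GF-WT libraries held 19.3, 21.8 and 23.2 and CONV-WT libraries 15.9, 14.9 and 8.2 in units of 1e6 counts, in replicate order. Every CONV-WT total lay below every GF-WT total. Across 10908 genes with a mean of 50 or more normalized counts, log2 values correlated at 0.947 to 0.98 within GF-WT, at 0.874 to 0.977 within CONV-WT and at 0.833 to 0.912 between the groups. CONV-WT replicate 3, the shallowest library, stood apart from the other two of its group (0.874 and 0.905, against 0.977 between these), and the calls of genes described below that changed without it are given both ways. The Y-linked pattern was present in 1 of 3 CONV-WT libraries and in 0 of 3 GF-WT libraries. The 8 epithelial markers, among them keratins and Epcam, summed to 11700 to 12700 CPM (counts per 1e6 counts) in GF-WT and to 10400 to 11700 in CONV-WT, so that the labelled epithelium was present in every library.

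To determine which genes differed with conventional colonization, counts were tested with DESeq2, and a gene was called at an adjusted p under 0.01. Values below are normalized counts in the order of replicates 1, 2 and 3, and log2 fold changes are CONV-WT over GF-WT. Of 13874 tested genes, 1521 (11%) were called, with 788 (5.68%) higher and 733 (5.28%) lower in CONV-WT. The median log2 fold change over all tested genes was -0.0011. In 5037 tested genes (36.3%) the 3 values of one group did not overlap those of the other. Of the calls, 464 (3.34% of tested genes) held in all 6 fits made without 1 library. The quasi-likelihood test of edgeR called 22 of 12603 genes (0.175%), and all 22 were among the DESeq2 calls. Among all genes given a p, 4256 had an unadjusted p under 0.05 in DESeq2 and 3621 in edgeR. Counts of list members at that threshold are to be read beside these. Without CONV-WT replicate 3 DESeq2 called 2868 genes, without CONV-WT replicates 1 and 2 it called 932 and 592, and without GF-WT replicates 1, 2 and 3 it called 805, 683 and 696. With every library thinned to 8.2 in units of 1e6 counts, the total of the shallowest, 1233 genes were called, and 1184 of these were among the 1521. With a sex term in the fit, 922 were called, of which 789 were among them. These p-values measure the spread between the libraries of 3 numbered samples per group.

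**Figure D1:**
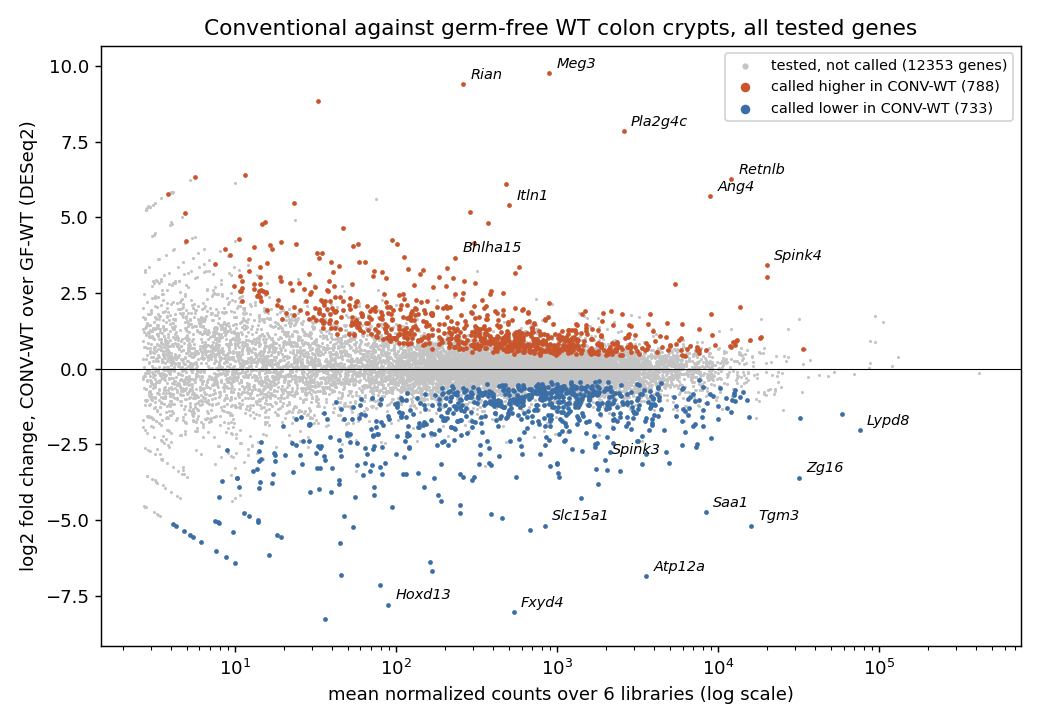
Log2 fold change of CONV-WT over GF-WT (y axis) against the mean normalized counts over the 6 libraries (x axis, log scale), with 1 point per tested gene, orange for the 788 genes called higher, blue for the 733 called lower and grey for the others. The secreted defence genes Retnlb, Ang4 and Itln1 lie far above 0 and the transport genes Atp12a and Fxyd4 far below.

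The 22 genes called by both tools had adjusted p in edgeR between 0.0062 and 0.0095 and were called in every fit that left out 1 library, and their groups did not overlap. Among them, higher in CONV-WT were Pla2g4c (a cytosolic phospholipase A2, 7.84), the stress and cell cycle regulator Gadd45g (4.15), the secretory transcription factor Bhlha15 (3.67), creatine kinase Ckb (3.34), Fam221a (2.31) and 2810417H13Rik (1.97), all as log2 fold changes. Meg3 was also higher, and no fold is given for it because GF-WT held so few of its reads. Lower were the proton pump Atp12a (-6.86), the peptide transporter Slc15a1 (-5.19), the channel Trpv3 (-4.58), mitochondrial creatine kinase Ckmt2 (-3.46), the amino acid transporter Slc6a20a (-3.12), the trypsin inhibitor Spink3 (-3.004), Gpr137b (-2.82), the morphogen Bmp2 (-2.82), Nrap (-2.61), Lrrc19 (-2.54), Pm20d1 (-1.97) and Sh3d21 (-1.90). 2010106E10Rik was also lower, at 434, 294 and 259 in GF-WT and 6.03, 2.09 and 0 in CONV-WT. No fold is given for it because CONV-WT held so few of its reads. Normalized counts of Gadd45g were 18.9, 41.9 and 35.7 in GF-WT and 673, 602 and 446 in CONV-WT, those of Ckb 34.5, 35.9 and 40.9 in GF-WT and 433, 388 and 302 in CONV-WT and those of Ckmt2 254, 255 and 247 in GF-WT and 20.1, 28.1 and 19.5 in CONV-WT. In each of these the 3 libraries of a group lay close together and far from the other group.

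Gene lists were read as counts of called members beside these shares of all tested genes. Large shares of higher members were found among S phase, tuft, phospholipase A2 and secretory transcription factor genes. Large shares of lower members were found among brush border, ion transport, circadian clock and surface colonocyte genes. The lists were chosen with results of these libraries known, and no test was made of a list as a whole.

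**Figure D2:**
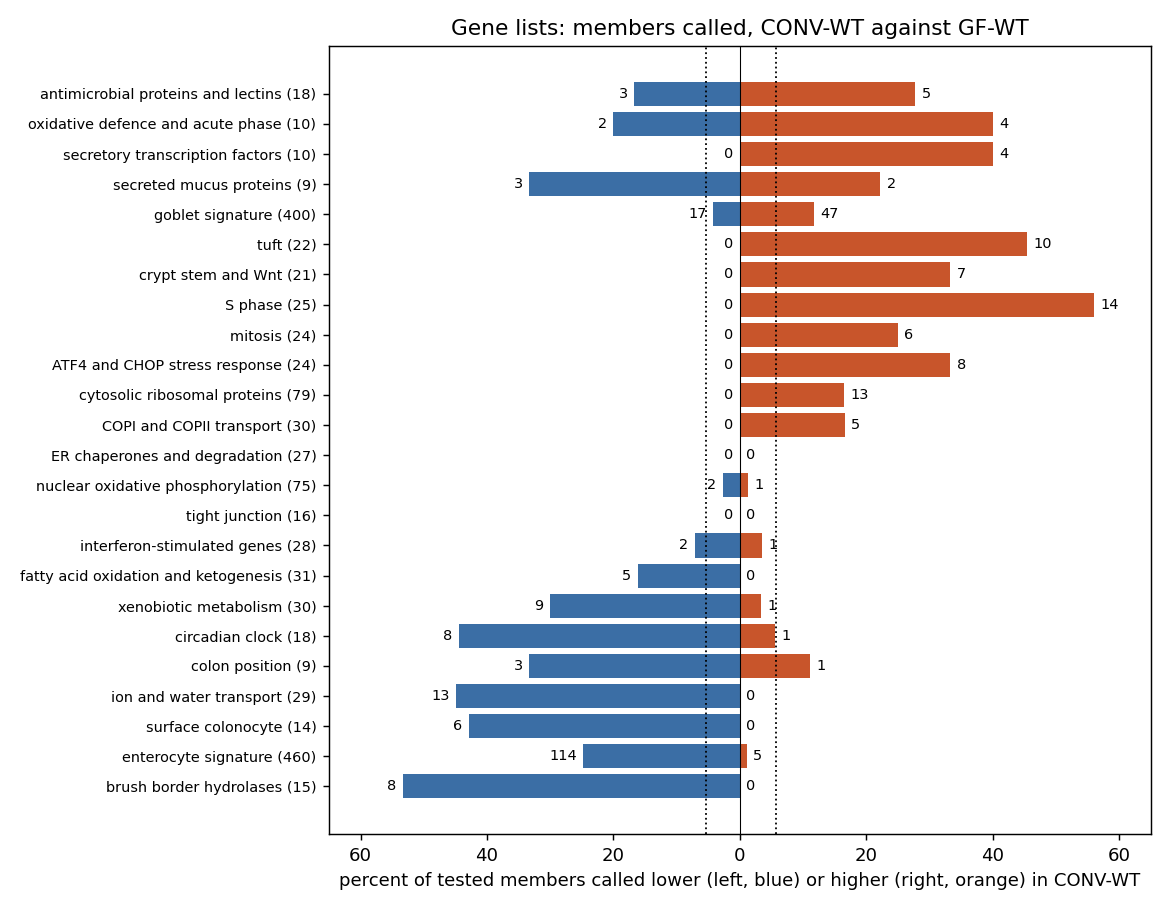
Percent of the tested members of each list (tested members in parentheses) that were called higher (orange, right) or lower (blue, left) in CONV-WT, with the numbers called beside the bars and dotted lines at the shares of all tested genes, 5.68% and 5.28%. S phase genes have 14 of 25 members called higher and brush border hydrolases 8 of 15 called lower.

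Antimicrobial proteins and lectins moved in both directions. Of 18 tested members 5 were called higher and 3 lower, and the median log2 fold change was 1.87. Highest among them was Retnlb (chr16:48816856-48818892 in mouse build GRCm38.p6), which encodes the goblet cell protein RELMβ and damages the membranes of Gram-negative bacteria. Its normalized counts were 184, 351 and 403 in GF-WT and 36687, 26757 and 7999 in CONV-WT. All CONV-WT libraries exceeded all GF-WT libraries, although replicate 3 was the lowest of its group (log2 fold change 6.25, SE 0.56, adjusted p 2.33e-26). Ang4 (chr14:51763892-51773590), an antimicrobial ribonuclease, had 131, 103 and 785 in GF-WT and 26029.9, 18310.5 and 8238 in CONV-WT (log2 fold change 5.69, SE 0.77, adjusted p 2.29e-11). The lectin Itln1 (chr1:171518123-171535325), which binds microbial glycans, had 21.4, 30.7 and 17.8 in GF-WT and 1736, 852 and 360.1 in CONV-WT (log2 fold change 5.40, SE 0.57, adjusted p 1.40e-18). Neither gene overlapped between the groups. Reg4 rose as well, from 6619, 4968 and 1554 to 36645, 51097 and 19418 (log2 fold change 3.03, SE 0.56, adjusted p 3.39e-06). The group IIA phospholipase Pla2g2a rose (log2 fold change 3.14, SE 0.80, adjusted p 0.00126) with adjusted p of 0.0173 without GF-WT replicate 2, 0.015 without CONV-WT replicate 1 and 0.0282 without CONV-WT replicate 2. Ang4 and the Reg genes have close copies in the mouse genome, so that reads may have been shared between copies.

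The antimicrobial genes that fell were Lypd8, Zg16 and Slpi. Lypd8 (chr11:58379032-58390541) encodes a secreted protein that binds flagellated bacteria and is made by surface colonocytes. It had 101541, 114164 and 147891 in GF-WT and 31604, 31478 and 25899 in CONV-WT (log2 fold change -2.03, SE 0.22, adjusted p 6.13e-18), and the groups did not overlap. Zg16 (chr7:127050156-127052675), a lectin that aggregates Gram-positive bacteria, had 60030.2, 39894 and 74859 in GF-WT and 3079, 3241 and 8118 in CONV-WT. Here CONV-WT replicate 3 was the highest of its group and still below every GF-WT library. The protease inhibitor Slpi had 25.5, 31.5 and 37.9 in GF-WT and 2.01, 4.17 and 1.95 in CONV-WT (log2 fold change -3.49, SE 0.71, adjusted p 2.82e-05). The C-type lectins Reg3g and Reg3b did not pass the threshold. Reg3g had 25.5, 121 and 207 in GF-WT and 162, 903 and 420.5 in CONV-WT (log2 fold change 2.07, SE 0.78, adjusted p 0.0429), with 1 CONV-WT library inside the GF-WT range.

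Among oxidative defence and acute phase genes, 4 of 10 were called higher and 2 lower, and higher calls numbered 4, 2 and 3 without GF-WT replicates 1, 2 and 3 and 4, 2 and 5 without CONV-WT replicates 1, 2 and 3. Noxa1, which activates the NADPH oxidase NOX1, had 920.0, 930.2 and 850.2 in GF-WT and 2006, 2221 and 2173 in CONV-WT (log2 fold change 1.24, SE 0.13, adjusted p 3.26e-18). Gpx2, the glutathione peroxidase of the gut epithelium, had 5235, 4312 and 2506 in GF-WT and 17762, 14908 and 9362 in CONV-WT (log2 fold change 1.80, SE 0.37, adjusted p 3.92e-05). Both were called in every fit that left out 1 library, and their groups did not overlap. Duoxa2, the maturation factor of the dual oxidase DUOX2, was also called (log2 fold change 1.85, SE 0.41, adjusted p 0.000195), with adjusted p of 0.0105 without GF-WT replicate 2 and 0.0138 without CONV-WT replicate 2. Duox2 itself did not pass (log2 fold change 1.17, SE 0.55, adjusted p 0.127, and 1.59, SE 0.35, adjusted p 6.44e-05 without CONV-WT replicate 3). The nitric oxide synthase Nos2 rose from 5.75, 0.749 and 1.49 to 18.1, 43.8 and 25.3 (adjusted p 0.000472, and 0.0122 without GF-WT replicate 2, 0.0146 without GF-WT replicate 3 and 0.0494 without CONV-WT replicate 2). By contrast, the acute phase genes Saa1 (chr7:46740497-46743181) and Saa2 (chr7:46751833-46754313) fell together. Saa1 had 6840.3, 14007 and 27507 in GF-WT and 292, 629.7 and 889.6 in CONV-WT (log2 fold change -4.74, SE 0.57, adjusted p 3.17e-14), and Saa2 had 59.97, 69.7 and 187 in GF-WT and 5.02, 3.13 and 9.73 in CONV-WT (log2 fold change -4.24, SE 0.70, adjusted p 1.20e-07). These neighbouring genes are close copies, so reads may have been assigned to either.

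**Figure D3:**
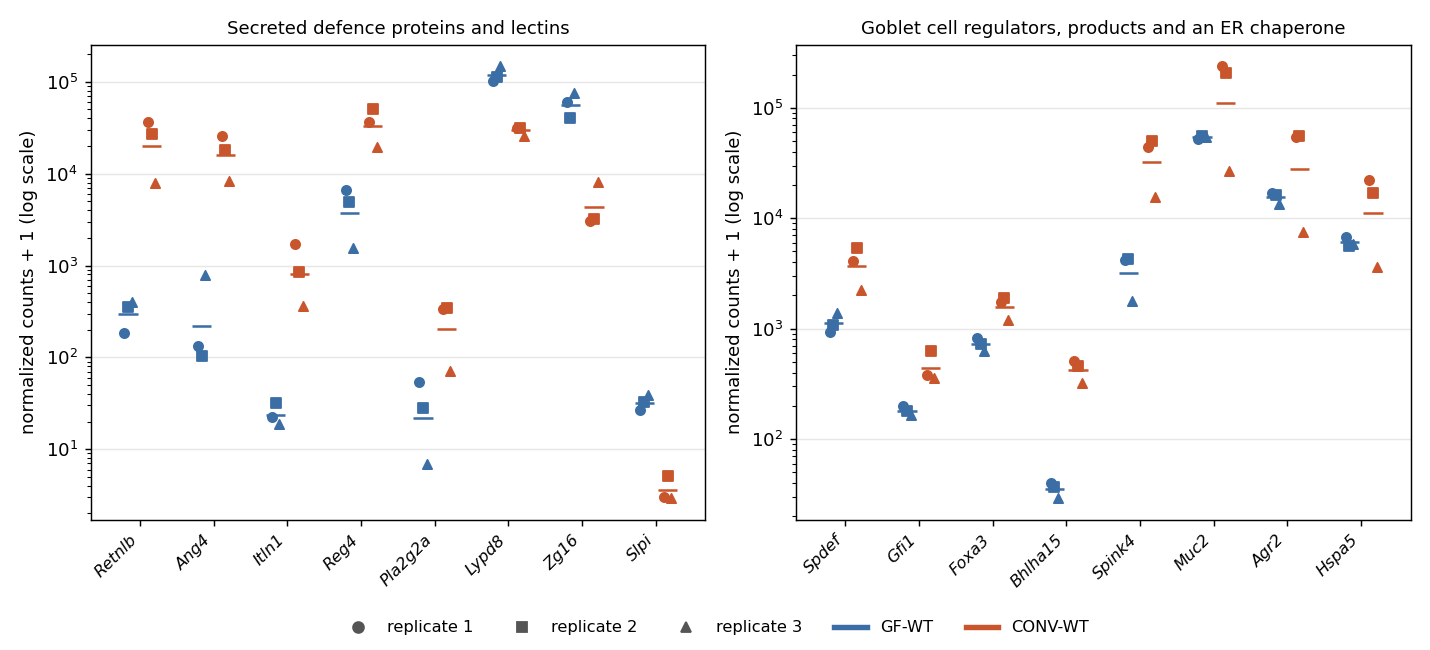
Normalized counts + 1 (log scale) of 8 secreted defence genes (left) and 8 goblet and ER genes (right) in GF-WT (blue) and CONV-WT (orange), with circles, squares and triangles for replicates 1, 2 and 3 and bars at the geometric mean of each group. CONV-WT replicate 3 lies below all GF-WT libraries for Muc2, Agr2 and Hspa5, but above them for Retnlb, Ang4, Spdef and Bhlha15.

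Transcription factors of the secretory lineage were next examined. Of 10 tested members 4 were called higher and none lower, with a median log2 fold change of 0.37. That median was 0.20 without CONV-WT replicate 1 and 0.69 without CONV-WT replicate 3. Bhlha15 (MIST1; chr5:144190286-144194441), which scales up the secretory apparatus of gland cells, had 38.6, 35.9 and 28.2 in GF-WT and 513, 462 and 323 in CONV-WT (log2 fold change 3.67, SE 0.30, adjusted p 6.05e-32). Spdef (chr17:27714446-27731003), which drives goblet cell maturation, had 923, 1084 and 1388 in GF-WT and 4128, 5414 and 2215 in CONV-WT (log2 fold change 1.79, SE 0.37, adjusted p 4.34e-05). The groups did not overlap in either gene. Gfi1, which represses the enteroendocrine fate, and Foxa3 also rose. Gfi1 had 198, 177 and 164 in GF-WT and 379.9, 629 and 354 in CONV-WT (log2 fold change 1.34, SE 0.30, adjusted p 0.000169), with adjusted p of 0.0105 without GF-WT replicate 2 and 0.01005 without GF-WT replicate 3. Foxa3 had 816, 725 and 632 in GF-WT and 1735, 1902 and 1199 in CONV-WT (log2 fold change 1.16, SE 0.25, adjusted p 9.43e-05), with 0.0133 without CONV-WT replicate 2. Atoh1, which commits cells to the secretory lineage, lay at 1433, 1176 and 1524 in GF-WT and 1668, 1955 and 1318 in CONV-WT (log2 fold change 0.26, SE 0.23, adjusted p 0.476), and its groups overlapped.

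Secreted mucus proteins split. Of 9 tested members 2 rose and 3 fell, and without CONV-WT replicate 3 the number that rose was 5. Spink4, a goblet cell protease inhibitor, had 4202, 4264 and 1787 in GF-WT and 43986, 49705 and 15722 in CONV-WT (log2 fold change 3.42, SE 0.51, adjusted p 2.69e-09). The gel-forming mucin Muc6 had only 0, 2.25 and 0.743 in GF-WT and 42.2, 74.02 and 19.5 in CONV-WT (adjusted p 1.81e-06), and no fold is given because GF-WT held so few of its reads. Tgm3 (chr2:129987794-130050399), a transglutaminase that cross-links mucus proteins, had 37119, 31498 and 24999 in GF-WT and 1332, 857 and 383 in CONV-WT, a 36.4-fold lower level on the fitted scale (log2 fold change -5.18, SE 0.45, adjusted p 4.66e-28). No library of either group overlapped with the other group in these genes. Tff3, a trefoil peptide, fell (log2 fold change -1.59, SE 0.37, adjusted p 0.000389), with adjusted p of 0.0109 without GF-WT replicate 3 and 0.0121 without CONV-WT replicate 2. The principal colonic mucin Muc2 lay at 52414, 55549.6 and 53985 in GF-WT and at 238007, 205117 and 26878 in CONV-WT. CONV-WT replicates 1 and 2 thus stood well above GF-WT, whereas replicate 3 lay below all GF-WT libraries, and Muc2 was not called (log2 fold change 1.54, SE 0.65, adjusted p 0.0817, and 2.05, SE 0.13, adjusted p 4.35e-51 without CONV-WT replicate 3). Fcgbp, the IgG Fc-binding mucus protein, had 88406, 59848 and 109563 in GF-WT and 136952, 111256 and 11778 in CONV-WT and was not called (log2 fold change 0.01, SE 0.72, adjusted p 0.996, and 0.54, SE 0.27, adjusted p 0.114 without CONV-WT replicate 3). Of the 4 tested transmembrane mucins 0 were called by either tool, with 4 at an unadjusted p under 0.05 in DESeq2 and 1 in edgeR, and without CONV-WT replicate 3 DESeq2 called 2 higher and 2 lower. Muc13 had 30943, 29112 and 25545 in GF-WT and 20924, 17285 and 10082 in CONV-WT (log2 fold change -0.83, SE 0.31, adjusted p 0.0424, and -0.57, SE 0.16, adjusted p 0.003 without CONV-WT replicate 3) and Muc1 325, 252 and 343 in GF-WT and 148, 169 and 15.6 in CONV-WT (log2 fold change -1.46, SE 0.68, adjusted p 0.122, and -0.95, SE 0.24, adjusted p 0.00062 without CONV-WT replicate 3).

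The goblet cell signature, the gene names of a published single-cell set that the study used, showed the same dependence on 1 library. Of 400 tested members 47 were called higher and 17 lower. Higher calls were 25, 21 and 28 without GF-WT replicates 1, 2 and 3 and 23, 19 and 142 without CONV-WT replicates 1, 2 and 3, and lower calls were 11, 12 and 7 without GF-WT replicates 1, 2 and 3 and 15, 8 and 30 without CONV-WT replicates 1, 2 and 3. The median difference of the members from the GF-WT mean was 0.37 and 0.36 on the log2 scale in CONV-WT replicates 1 and 2 and -0.45 in replicate 3. Members called in every one of these fits numbered 16 higher and 7 lower. Those that rose included Serp1, a translocon-associated stress protein (log2 fold change 1.24, SE 0.15, adjusted p 1.08e-13), Tmsb10 (log2 fold change 1.52, SE 0.18, adjusted p 3.25e-14) and the branched-chain aminotransferase Bcat2 (log2 fold change 1.27, SE 0.17, adjusted p 8.28e-12). Those that fell included the lectin Zg16, with the values given above. Serp1 had 2261, 2320.2 and 2403 in GF-WT and 5411, 6154 and 4937 in CONV-WT. In this gene CONV-WT replicate 3 did not stand apart from the other two of its group.

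ER chaperones and degradation factors were called in 0 of 27 members by DESeq2 and by edgeR, with 5 and 1 members at an unadjusted p under 0.05. The chaperone BiP (Hspa5) had 6708, 5613 and 5863 in GF-WT and 22329.7, 16815 and 3607 in CONV-WT (log2 fold change 1.23, SE 0.57, adjusted p 0.12, and 1.70, SE 0.18, adjusted p 3.44e-18 without CONV-WT replicate 3). CONV-WT replicates 1 and 2 lay above all GF-WT libraries, and replicate 3 lay below them. Without CONV-WT replicate 3, 17 of the 27 were called higher, and in each of the other 5 fits that left out 1 library 0 were. Across the list the median difference from the GF-WT mean was 0.75, 0.66 and -1.04 in CONV-WT replicates 1, 2 and 3. Subunits of the translocon, signal peptidase and oligosaccharyltransferase had 1 of 24 members called higher, 19 without CONV-WT replicate 3 and 0 in each of the other 5 such fits. Among them Sec61a1 had 5091, 4774 and 4346 in GF-WT and 8767, 8026 and 2256 in CONV-WT (log2 fold change 0.42, SE 0.48, adjusted p 0.599, and 0.84, SE 0.14, adjusted p 5.12e-08 without CONV-WT replicate 3) and Sec61b 868, 899 and 707 in GF-WT and 1856, 1894 and 1213 in CONV-WT (log2 fold change 1.01, SE 0.25, adjusted p 0.00109). The Sec61b call had adjusted p of 0.0177 without GF-WT replicate 1, 0.016 without GF-WT replicate 2, 0.0327 without GF-WT replicate 3, 0.0282 without CONV-WT replicate 1 and 0.0496 without CONV-WT replicate 2. Of the ER stress sensors and Xbp1, 0 of 6 were called, with 0 at an unadjusted p under 0.05 in either tool, and Xbp1 alone was called without CONV-WT replicate 3. The sensor Ern2 had 2751, 2041 and 2611 in GF-WT and 3303, 3273 and 2227 in CONV-WT (log2 fold change 0.25, SE 0.25, adjusted p 0.53, and 0.42, SE 0.18, adjusted p 0.0585 without CONV-WT replicate 3), and the transcription factor Xbp1 had 3154, 2861 and 3446 in GF-WT and 4849.8, 4553 and 2254 in CONV-WT (log2 fold change 0.30, SE 0.33, adjusted p 0.581, and 0.59, SE 0.15, adjusted p 0.000607 without CONV-WT replicate 3). Reads per gene do not separate spliced from unspliced Xbp1.

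Coat proteins of transport between ER and Golgi held 5 of 30 members called higher and 0 lower (1 without CONV-WT replicate 3). Higher calls were 2, 2 and 3 without GF-WT replicates 1, 2 and 3 and 3, 2 and 17 without CONV-WT replicates 1, 2 and 3. The COPI subunits Copz2 (log2 fold change 1.76, SE 0.36, adjusted p 4.38e-05) and Copz1 (log2 fold change 0.73, SE 0.14, adjusted p 6.71e-06) were called in every such fit. Copz1 had 2870.2, 2869 and 2558 in GF-WT and 4580.5, 4306 and 4925 in CONV-WT. CONV-WT replicate 3 was the highest library of all 6 here. Enzymes that build O-glycans on mucins had 0 of 38 members called higher and 4 lower, together 10.5%, close to the 11% of all tested genes. Without CONV-WT replicate 3, 8 were called higher. Those called in every fit that left out 1 library were Gcnt1, which makes the core branch (log2 fold change -1.80, SE 0.33, adjusted p 2.31e-06), the sialyltransferase St6gal1 (log2 fold change -1.48, SE 0.25, adjusted p 3.72e-07) and the sulfotransferase Gal3st2 (log2 fold change -2.16, SE 0.32, adjusted p 1.44e-09). Gcnt1 had 527, 548 and 505 in GF-WT and 191, 173 and 83.7 in CONV-WT, and its groups did not overlap. The core enzyme B3gnt6 had 191, 291 and 549 in GF-WT and 545, 734 and 214 in CONV-WT (log2 fold change 0.54, SE 0.55, adjusted p 0.546, and 0.90, SE 0.42, adjusted p 0.0838 without CONV-WT replicate 3) and the fucosyltransferase Fut2 3155, 2832 and 3436 in GF-WT and 5375, 5643 and 1641 in CONV-WT (log2 fold change 0.43, SE 0.46, adjusted p 0.571, and 0.82, SE 0.15, adjusted p 6.39e-07 without CONV-WT replicate 3), and in both the groups overlapped.

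**Figure D4:**
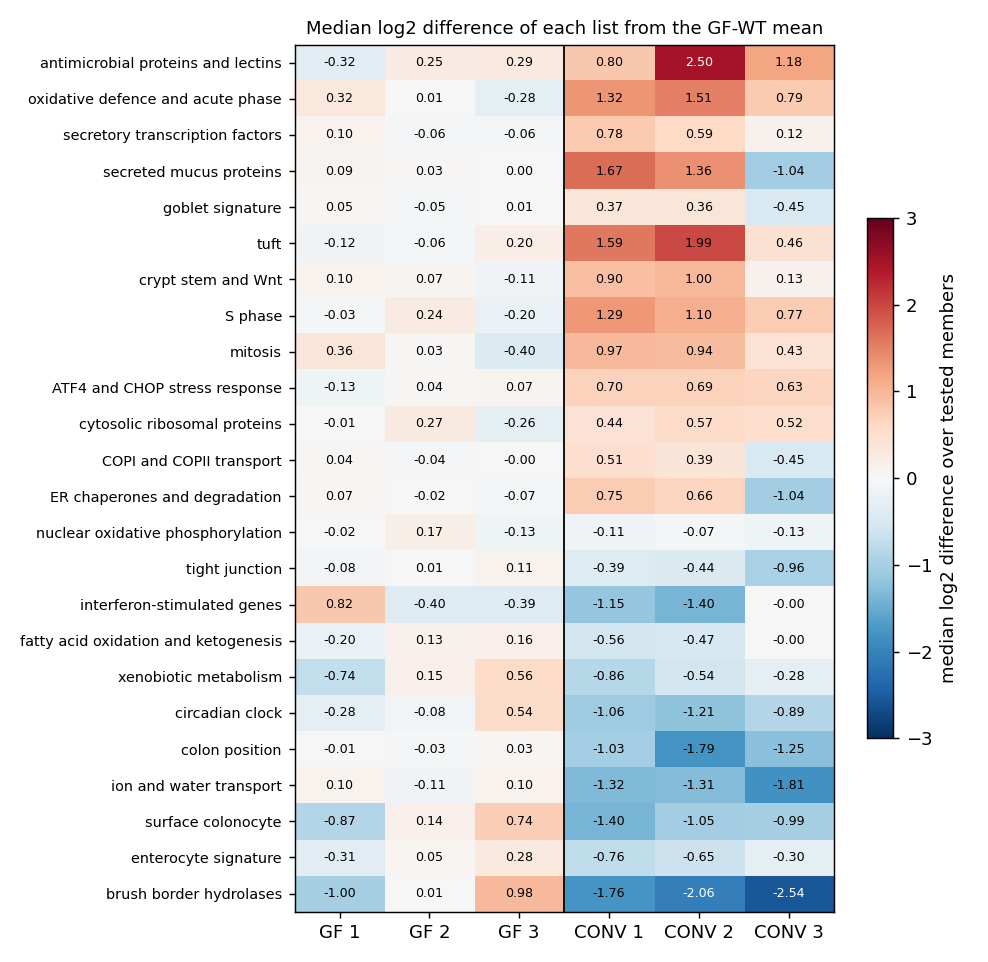
Median over the tested members of each list of the difference between a library's log2(normalized counts + 1) and the GF-WT mean (colour, with the value in each cell), with 1 column per library. CONV-WT replicate 3 departs from replicates 1 and 2 in goblet, mucus and ER lists, whereas S phase, ATF4, ion transport and brush border lists have 1 sign in all 3 CONV-WT libraries.

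Genes of absorption were called lower across several lists. Of 29 ion and water transport genes 13 were called lower and 0 higher (2 without CONV-WT replicate 3), with a median log2 fold change of -1.46, and 9 were called in every fit that left out 1 library. Lower calls were 10, 11 and 9 without GF-WT replicates 1, 2 and 3 and 11, 11 and 18 without CONV-WT replicates 1, 2 and 3. Atp12a (chr14:56364669-56388551), the colonic H+/K+-ATPase that reabsorbs potassium, had 8612, 5196 and 7454 in GF-WT and 62.3, 89.7 and 27.3 in CONV-WT. It was 116-fold lower in CONV-WT (log2 fold change -6.86, SE 0.42, adjusted p 1.73e-56), and the groups were far apart. Fxyd4 (chr6:117933558-117937714), a small regulator of the Na+/K+-ATPase that responds to aldosterone, had 1805, 1124 and 280.2 in GF-WT and 4.02, 4.17 and 3.89 in CONV-WT (log2 fold change -8.05, SE 0.78, adjusted p 3.14e-22). The γ subunit of the epithelial sodium channel, Scnn1g, had 172, 20.97 and 79.5 in GF-WT and 0, 2.09 and 0 in CONV-WT. Only 1 CONV-WT library held any Scnn1g reads, so no fold is given (adjusted p 7.42e-06).

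Further transporters fell in the same direction. The sodium/proton exchanger Slc9a3 had 1212, 2008 and 6814 in GF-WT and 216, 338 and 165 in CONV-WT (log2 fold change -3.80, SE 0.63, adjusted p 1.19e-07). Hsd11b2, which protects the mineralocorticoid receptor from glucocorticoids, had 15809.9, 10137 and 11419.8 in GF-WT and 2626, 2431 and 1141 in CONV-WT (log2 fold change -2.59, SE 0.37, adjusted p 5.79e-10). The chloride/bicarbonate exchanger Slc26a3, altered in congenital chloride diarrhoea, had 5525, 8239 and 19336 in GF-WT and 2549.5, 2301 and 4051 in CONV-WT (log2 fold change -1.90, SE 0.49, adjusted p 0.00181). The groups did not overlap in these genes. The Slc26a3 call was lost in part, with adjusted p of 0.0206 without GF-WT replicate 3, 0.0144 without CONV-WT replicate 1, 0.0292 without CONV-WT replicate 2 and 0.0114 without CONV-WT replicate 3. Of the transporters that drive secretion, neither of the following was called. Cftr, the chloride channel of crypt cells, had 4608, 4243 and 3482 in GF-WT and 4667, 4170.2 and 1162 in CONV-WT (log2 fold change -0.30, SE 0.49, adjusted p 0.731, and 0.11, SE 0.17, adjusted p 0.666 without CONV-WT replicate 3). The cotransporter Slc12a2 had 9558, 8649 and 7942 in GF-WT and 11849, 12169 and 2260.1 in CONV-WT (log2 fold change 0.01, SE 0.56, adjusted p 0.997, and 0.47, SE 0.14, adjusted p 0.00395 without CONV-WT replicate 3).

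Brush border hydrolases held 8 of 15 members lower and 0 higher, with a median of -2.27. Sis (sucrase-isomaltase) had 129, 684 and 1448 in GF-WT and 13.1, 45.9 and 21.4 in CONV-WT (log2 fold change -4.81, SE 0.79, adjusted p 1.25e-07). The meprin Mep1b had 1453, 2956 and 5749 in GF-WT and 677, 573 and 853 in CONV-WT (log2 fold change -2.27, SE 0.49, adjusted p 8.56e-05). Every CONV-WT value lay below every GF-WT value in both genes. GF-WT itself was wide here, with median differences of the list from the GF-WT mean of -1.0, 0.01 and 0.98 in GF-WT and -1.76, -2.06 and -2.54 in CONV-WT. GF-WT replicate 1 was thus the lowest and replicate 3 the highest of their group. Anpep had 287, 154 and 1648 in GF-WT and 94.5, 69.9 and 66.2 in CONV-WT (log2 fold change -3.18, SE 0.78, adjusted p 0.000784), with adjusted p of 0.0409 without CONV-WT replicate 3. GF-WT replicate 3 lay far above the rest of its group in Anpep, so the size of this fold depends on that library.

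Transporters of amino acids and peptides outside these lists were among the largest decreases. Slc15a1 (chr14:121459621-121505254), which takes up dipeptides, had 962, 1493 and 2454 in GF-WT and 32.2, 57.3 and 44.8 in CONV-WT (log2 fold change -5.19, SE 0.43, adjusted p 2.47e-30). Slc6a19, a neutral amino acid transporter, had 41.1, 74.1 and 849 in GF-WT and 5.02, 4.17 and 1.95 in CONV-WT (log2 fold change -6.39, SE 1.10, adjusted p 4.87e-07). Slc7a9, a cystine transporter, had 211, 382 and 837 in GF-WT and 12.1, 25.02 and 27.3 in CONV-WT (log2 fold change -4.50, SE 0.58, adjusted p 3.35e-12). The groups did not overlap, and GF-WT replicate 3 was the highest library in all 3 genes. In Slc6a19 that library lay far above the rest of its group, so the size of the Slc6a19 fold and its rank depend on it. The sialidase Neu3 (-4.19), Cyp2d13 (-4.38), which RefSeq lists as a transcribed pseudogene, and the cytokine receptor Lifr (-4.76) completed the 12 largest decreases among genes called in every such fit that had a mean of 100 or more normalized counts and no overlap between groups. Cyp genes have close copies, so Cyp2d13 reads may be shared with them.

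Surface colonocyte genes held 6 of 14 members lower and 0 higher (1 without CONV-WT replicate 3), with a median of -1.46. Lower calls were 10, 4 and 4 without GF-WT replicates 1, 2 and 3 and 4, 4 and 6 without CONV-WT replicates 1, 2 and 3. The adhesion molecules of the microvilli Cdhr2 (log2 fold change -1.66, SE 0.37, adjusted p 0.000151) and Cdhr5 (log2 fold change -1.61, SE 0.32, adjusted p 1.39e-05) fell, as did Ceacam20, a brush border glycoprotein, from 1118, 1982 and 2455 to 357, 362 and 350.4 (log2 fold change -2.38, SE 0.33, adjusted p 5.32e-11). Krt20, a keratin of the differentiated surface, had 3581, 8721 and 16762 in GF-WT and 3254, 4090.0 and 15356 in CONV-WT and was not called (log2 fold change -0.36, SE 0.70, adjusted p 0.786, and -1.39, SE 0.75, adjusted p 0.151 without CONV-WT replicate 3). Its groups overlapped, since CONV-WT replicate 3 lay near the top of the GF-WT range. The water channel Aqp8 had 1663, 2188 and 5088 in GF-WT and 141, 318 and 1483 in CONV-WT (log2 fold change -2.21, SE 0.79, adjusted p 0.0334, and -3.69, SE 0.79, adjusted p 3.94e-05 without CONV-WT replicate 3). In the published enterocyte signature 114 of 460 members were lower and 5 higher. Lower calls were 114, 72 and 68 without GF-WT replicates 1, 2 and 3 and 83, 78 and 183 without CONV-WT replicates 1, 2 and 3, and higher calls were 3, 2 and 3 without GF-WT replicates 1, 2 and 3 and 7, 1 and 8 without CONV-WT replicates 1, 2 and 3. Of the 22 genes called by edgeR, 8 belonged to this signature. Tight junction genes were called in 0 of 16 members by either tool, with 7 at an unadjusted p under 0.05 in DESeq2 and 3 in edgeR, and without CONV-WT replicate 3 DESeq2 called 2 higher and 3 lower. Cldn4 had 97.8, 219 and 785 in GF-WT and 76.4, 141 and 280.3 in CONV-WT (log2 fold change -1.15, SE 0.76, adjusted p 0.311) and Cldn8 2164, 2056 and 992 in GF-WT and 1036, 1121 and 274 in CONV-WT (log2 fold change -1.10, SE 0.55, adjusted p 0.154).

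Xenobiotic metabolism held 9 of 30 members lower and 1 higher (2 without CONV-WT replicate 1 or 3), with a median of -0.52, and lower calls were 11, 6 and 6 without GF-WT replicates 1, 2 and 3 and 5, 7 and 11 without CONV-WT replicates 1, 2 and 3. Cyp3a13 had 2192, 3789.6 and 7380.1 in GF-WT and 357, 487 and 452 in CONV-WT (log2 fold change -3.37, SE 0.45, adjusted p 1.24e-11). Cyp4f14 fell (log2 fold change -3.16, SE 0.56, adjusted p 1.17e-06), and so did the drug efflux pump Abcb1a, from 8949.9, 11555 and 14199.9 to 3457, 5837 and 4022 (log2 fold change -1.38, SE 0.30, adjusted p 8.90e-05). The nuclear receptor Nr1i3 (CAR), which senses foreign compounds and bilirubin, had 64.1, 114 and 192 in GF-WT and 16.1, 16.7 and 27.3 in CONV-WT (log2 fold change -2.66, SE 0.52, adjusted p 1.38e-05). No library overlapped between the groups in these genes. Cyp2c55, a cytochrome of the colon, had 1608, 14408 and 20592 in GF-WT and 9289, 25368 and 16708 in CONV-WT and was not called (log2 fold change 0.49, SE 0.76, adjusted p 0.719). The member that rose was the glutathione transferase Gstm3 (log2 fold change 0.99, SE 0.23, adjusted p 0.000315), with adjusted p of 0.0262 without GF-WT replicate 2, 0.0184 without GF-WT replicate 3 and 0.0142 without CONV-WT replicate 2.

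Genes that mark the position along the colon also moved, beside the absorptive genes. Of 9 tested members 3 were lower and 1 higher, with a median of -1.04, and lower calls were 2, 1 and 2 without GF-WT replicates 1, 2 and 3 and 3, 1 and 3 without CONV-WT replicates 1, 2 and 3. Hoxb13, a distal Hox gene, had 8329.7, 6027 and 3935 in GF-WT and 2845, 1509.6 and 627 in CONV-WT (log2 fold change -1.88, SE 0.54, adjusted p 0.00582). All CONV-WT values lay below all GF-WT values, and the adjusted p was 0.0602 without GF-WT replicate 1, 0.0433 without GF-WT replicate 2 and 0.0482 without CONV-WT replicate 2. Hoxd13 (chr2:74668225-74671603), which marks the most distal colon, had 79.7, 311 and 143 in GF-WT and 2.01, 0 and 0 in CONV-WT (adjusted p 4.33e-09). No fold is given for it, since 2 of the CONV-WT libraries held none of its reads. The neighbouring Hoxd11 was at 0 in all CONV-WT libraries and at 1.64, 17.97 and 17.1 in GF-WT, with adjusted p of 0.1255 without GF-WT replicate 3, 0.0395 without CONV-WT replicate 1 and 0.054 without CONV-WT replicate 2, and with no adjusted p from DESeq2 without GF-WT replicate 2. Hoxa11, a less distal gene, lay the other way at 52.6, 51.7 and 54.2 in GF-WT and 156, 107 and 97.3 in CONV-WT (log2 fold change 1.20, SE 0.29, adjusted p 0.000842), with adjusted p of 0.0273 without GF-WT replicate 1, 0.0328 without GF-WT replicate 2, 0.0224 without GF-WT replicate 3, 0.0452 without CONV-WT replicate 1 and 0.0194 without CONV-WT replicate 2. The part of this difference in the absorptive genes was not tested. For colonized mice the study's methods name the distal colon as the source of the crypts, and for conventional mice its supplement shows RNA-Seq of both proximal and distal colon. Neither ties a segment to the CONV-WT or GF-WT libraries used here.

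**Figure D5:**
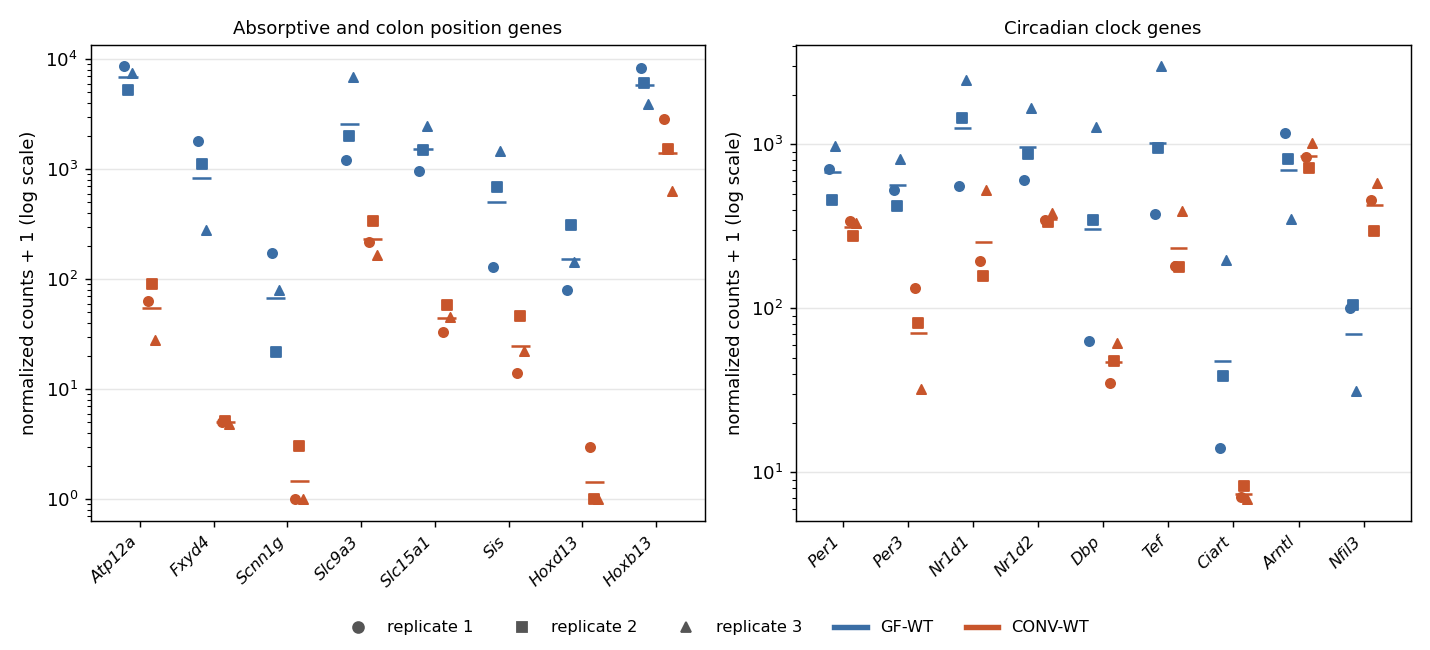
Normalized counts + 1 (log scale) of 8 absorptive and colon position genes (left) and 9 circadian clock genes (right), with symbols and bars as for the defence genes. Atp12a, Slc15a1 and Hoxd13 are separated between GF-WT (blue) and CONV-WT (orange), whereas GF-WT libraries spread widely for Sis, Dbp, Tef and Ciart.

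Most genes of DNA replication examined were called higher in CONV-WT. Of 25 S phase genes 14 were called higher and 0 lower, and all 25 had a positive log2 fold change with a median of 1.07. In 22 of the 25 the groups did not overlap, against 36.3% of all tested genes. Higher calls were 7, 13 and 7 without GF-WT replicates 1, 2 and 3 and 6, 5 and 23 without CONV-WT replicates 1, 2 and 3. Under edgeR 0 were called, with 24 at an unadjusted p under 0.05 in either tool. Of these genes Mcm6, a subunit of the replicative helicase, had 907, 1089 and 832 in GF-WT and 2533, 2003 and 1766 in CONV-WT (log2 fold change 1.16, SE 0.23, adjusted p 1.15e-05). Cdc6, which loads that helicase at origins, had 74.8, 95.1 and 78.03 in GF-WT and 253, 182 and 229.7 in CONV-WT (log2 fold change 1.42, SE 0.25, adjusted p 7.71e-07). The ribonucleotide reductase subunit Rrm2 had 265, 316 and 229 in GF-WT and 593, 587 and 533 in CONV-WT (log2 fold change 1.08, SE 0.20, adjusted p 3.16e-06), and the uracil glycosylase Ung had 214, 234 and 203 in GF-WT and 584, 546 and 489 in CONV-WT (log2 fold change 1.32, SE 0.17, adjusted p 8.30e-12). In these genes all 3 CONV-WT libraries lay above GF-WT. Pcna, the sliding clamp, had 858, 1039 and 910.3 in GF-WT and 1727, 1451 and 1219 in CONV-WT and was not called (log2 fold change 0.65, SE 0.21, adjusted p 0.0142, and 0.77, SE 0.17, adjusted p 7.78e-05 without CONV-WT replicate 3). The transcription factor E2f1, which drives entry into S phase, rose from 101, 124 and 69.9 to 300.5, 199 and 313 (log2 fold change 1.46, SE 0.33, adjusted p 0.000187).

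The promoters of S phase genes are known for sites of the E2F factors, and those of Mcm6 and Cdc6 are printed because, of the 5 members called in every fit that left out 1 library, these were the ones whose window held the letters searched. Ung, Rrm2 and E2f1 were not among the members that held them. RefSeq windows of 300 bases on GRCm38.p6, from 250 before to 50 after the start, were searched on both strands for TTTNNCGC. The letters were present in 9 of 20 windows of S phase genes (45.0%) and in 5.17% of all 32851 windows. The windows belonged to 19 of the 25 members, and among 10 called members with a window 5 held the letters. Capitals mark the matches, which overlap where both strands match, in Mcm6 on the minus strand at chr1:128359656-128359955 (3 matches) and in Cdc6 on the plus strand at chr11:98907901-98908200. A match describes the letters only, and binding was not measured.
Mcm6: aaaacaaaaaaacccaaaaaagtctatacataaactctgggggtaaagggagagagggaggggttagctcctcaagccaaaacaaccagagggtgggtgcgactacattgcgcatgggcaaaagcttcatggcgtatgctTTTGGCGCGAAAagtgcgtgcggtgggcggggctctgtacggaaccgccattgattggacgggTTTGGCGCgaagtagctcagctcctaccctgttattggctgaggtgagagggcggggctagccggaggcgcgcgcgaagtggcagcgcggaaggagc
Cdc6: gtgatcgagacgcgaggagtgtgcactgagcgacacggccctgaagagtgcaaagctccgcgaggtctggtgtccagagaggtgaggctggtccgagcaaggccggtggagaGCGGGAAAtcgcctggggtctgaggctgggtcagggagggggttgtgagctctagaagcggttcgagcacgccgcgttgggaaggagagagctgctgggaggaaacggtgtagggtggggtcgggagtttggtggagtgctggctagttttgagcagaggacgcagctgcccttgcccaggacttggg

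Mitotic genes held 6 of 24 members higher and 0 lower, with a median of 0.76. Higher calls were 5, 0 and 2 without GF-WT replicates 1, 2 and 3 and 0, 0 and 19 without CONV-WT replicates 1, 2 and 3. Topoisomerase Top2a had 2378, 2126 and 1283 in GF-WT and 4156, 4744 and 3580.0 in CONV-WT (log2 fold change 1.11, SE 0.29, adjusted p 0.00205), with adjusted p of 0.0199 without GF-WT replicate 2, 0.0199 without CONV-WT replicate 1 and 0.054 without CONV-WT replicate 2. The proliferation marker Mki67 had 5016, 3838 and 2496 in GF-WT and 8210.3, 6998 and 2163 in CONV-WT (log2 fold change 0.61, SE 0.51, adjusted p 0.443, and 1.02, SE 0.29, adjusted p 0.00249 without CONV-WT replicate 3). CONV-WT replicates 1 and 2 exceeded GF-WT in Mki67, whereas replicate 3 was the lowest of all 6 libraries.

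Among crypt stem and Wnt genes 7 of 21 were higher and 0 lower, with a median of 0.69. The cell cycle gene Ccnd1, a Wnt target, had 1109, 1265 and 1209 in GF-WT and 3173, 3512 and 3066 in CONV-WT (log2 fold change 1.45, SE 0.14, adjusted p 6.97e-21), and the hyaluronan receptor Cd44 had 303, 785 and 804 in GF-WT and 2282, 2809.7 and 1958 in CONV-WT (log2 fold change 1.90, SE 0.41, adjusted p 8.14e-05). Igfbp4 rose from 6.57, 3.00 and 8.92 to 126, 146 and 35.04 (log2 fold change 4.06, SE 0.67, adjusted p 1.18e-07). The groups did not overlap in these genes. The stem cell receptor Lgr5 had 196, 297 and 176 in GF-WT and 319.6, 447 and 189 in CONV-WT and was not called (log2 fold change 0.52, SE 0.39, adjusted p 0.39). Higher calls in this list were 4, 5 and 5 without GF-WT replicates 1, 2 and 3 and 4, 3 and 11 without CONV-WT replicates 1, 2 and 3. The published stem signature had 11 of 118 members higher and 5 lower, together 13.6%, near the 11% of all tested genes. Higher calls were 8, 8 and 7 without GF-WT replicates 1, 2 and 3 and 9, 7 and 21 without CONV-WT replicates 1, 2 and 3, and lower calls were 3, 3 and 3 without GF-WT replicates 1, 2 and 3 and 5, 3 and 9 without CONV-WT replicates 1, 2 and 3. Lamb3, a laminin chain (log2 fold change -1.74, SE 0.26, adjusted p 1.23e-09), and Shisa2 (log2 fold change -1.02, SE 0.15, adjusted p 3.12e-09) were among those that fell. Notch pathway genes held 1 of 14 members higher and 1 lower, together 14.3%, near the 11% of all tested genes. The feedback inhibitor Nrarp, the member that rose, had adjusted p of 0.0571 without GF-WT replicate 1, 0.0848 without GF-WT replicate 2, 0.0556 without GF-WT replicate 3 and 0.02 without CONV-WT replicate 1. The ligand Dll1 had 633, 281 and 223 in GF-WT and 132, 154 and 66.2 in CONV-WT (log2 fold change -1.68, SE 0.50, adjusted p 0.00785), with adjusted p of 0.0885 without GF-WT replicate 1, 0.0232 without GF-WT replicate 2, 0.0229 without CONV-WT replicate 1 and 0.0149 without CONV-WT replicate 2, and the Notch target Hes1 had 1534, 1432 and 1189.8 in GF-WT and 1485, 1729.6 and 1945 in CONV-WT (log2 fold change 0.31, SE 0.20, adjusted p 0.292).

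ATF4 is a transcription factor that responds to amino acid shortage and ER stress. Of 24 tested members of the list of ATF4 and CHOP targets 8 were higher, 0 were lower (1 without CONV-WT replicate 3) and 16 were not called, with a median of 0.62, and 5 were called in every fit that left out 1 library. Under edgeR 0 were called, with 15 at an unadjusted p under 0.05 in DESeq2 and 13 in edgeR. Higher calls were 5, 5 and 6 without GF-WT replicates 1, 2 and 3 and 5, 5 and 12 without CONV-WT replicates 1, 2 and 3. The mitochondrial folate enzyme Mthfd2 (chr6:83305704-83326011) had 64.9, 78.6 and 92.1 in GF-WT and 349, 343 and 290.1 in CONV-WT (log2 fold change 2.06, SE 0.23, adjusted p 2.18e-16). Phgdh, the first enzyme of serine synthesis, had 78.9, 86.9 and 52.8 in GF-WT and 302, 273 and 191 in CONV-WT (log2 fold change 1.82, SE 0.31, adjusted p 5.55e-07), and Psat1, the next, had 89.5, 129 and 116 in GF-WT and 394, 343 and 249 in CONV-WT (log2 fold change 1.57, SE 0.28, adjusted p 1.33e-06). Pycr1, which makes proline, had 41.1, 58.4 and 39.4 in GF-WT and 252, 279 and 128 in CONV-WT (log2 fold change 2.26, SE 0.38, adjusted p 3.51e-07). In these 4 genes the groups did not overlap, and CONV-WT replicate 3 lay above GF-WT, unlike in the ER chaperones. Atf4 had 2378, 2594 and 2575 in GF-WT and 3734, 3667 and 3934 in CONV-WT (log2 fold change 0.59, SE 0.12, adjusted p 4.03e-05), with adjusted p of 0.0573 without GF-WT replicate 1, 0.0248 without GF-WT replicate 2, 0.0171 without GF-WT replicate 3, 0.0289 without CONV-WT replicate 1 and 0.0401 without CONV-WT replicate 2. Ddit3 (CHOP), which acts in ER stress, had 159, 176 and 179.8 in GF-WT and 192, 217 and 385 in CONV-WT and was not called (log2 fold change 0.62, SE 0.33, adjusted p 0.187). Aldh1l2, a mitochondrial folate enzyme outside the list, rose from 6.57, 14.2 and 11.9 to 265, 234 and 73.97 (log2 fold change 4.13, SE 0.57, adjusted p 8.78e-11).

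ATF4 binds composite sites with C/EBP factors, and the promoters of Asns and Pycr1 are shown because, of the 5 members called in every fit that left out 1 library, these were the ones whose window held the letters searched. Mthfd2, Phgdh and Psat1 were not among the members that held them. Asns, which makes asparagine, had 518, 519.8 and 457 in GF-WT and 1232, 1166 and 827 in CONV-WT (log2 fold change 1.11, SE 0.22, adjusted p 2.13e-05). The letters TGATGNAA, searched on both strands, were present in 8 of 25 windows of the list (32.0%) and in 3.97% of all windows. The 25 windows belonged to 22 members, of which 8 held the letters, and of 8 called members 3 held them. Capitals mark the match in Asns, on the minus strand at chr6:7693160-7693459, and in Pycr1, on the minus strand at chr11:120643699-120643998.
Asns: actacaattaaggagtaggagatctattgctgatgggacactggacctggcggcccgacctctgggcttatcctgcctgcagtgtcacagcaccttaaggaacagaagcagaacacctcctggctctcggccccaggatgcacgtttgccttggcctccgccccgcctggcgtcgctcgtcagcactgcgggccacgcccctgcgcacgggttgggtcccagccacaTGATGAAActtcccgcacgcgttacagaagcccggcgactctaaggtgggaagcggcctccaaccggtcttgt
Pycr1: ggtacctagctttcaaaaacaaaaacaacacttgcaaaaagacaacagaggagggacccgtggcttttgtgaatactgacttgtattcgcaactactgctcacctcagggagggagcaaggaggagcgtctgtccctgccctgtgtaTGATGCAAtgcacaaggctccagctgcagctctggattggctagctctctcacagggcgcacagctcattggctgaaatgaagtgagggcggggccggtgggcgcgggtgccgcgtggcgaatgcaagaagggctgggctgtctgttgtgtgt

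Cytosolic ribosomal protein genes held 13 of 79 members higher and 0 lower, with a median of 0.51. A positive log2 fold change was present in 77. In 61 of the 79 the groups did not overlap, against 36.3% of all tested genes. Higher calls were 0, 14 and 1 without GF-WT replicates 1, 2 and 3 and 7, 0 and 24 without CONV-WT replicates 1, 2 and 3. The median difference of the list from the GF-WT mean was -0.01, 0.27 and -0.26 in GF-WT and 0.44, 0.57 and 0.52 in CONV-WT. Each CONV-WT library thus lay above each GF-WT library, and none of the 13 calls was kept in every fit that left out 1 library. Nuclear genes of oxidative phosphorylation held 1 of 75 members higher and 2 lower, with a median of -0.09. None of these calls was kept in every such fit, with higher calls of 0, 1 and 0 without GF-WT replicates 1, 2 and 3 and 1, 0 and 2 without CONV-WT replicates 1, 2 and 3 and lower calls of 0, 0 and 0 without GF-WT replicates 1, 2 and 3 and 1, 0 and 3 without CONV-WT replicates 1, 2 and 3.

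Tuft cells sense luminal metabolites and parasites. Of 22 tuft genes 10 were higher and 0 lower, with a median of 1.55. Higher calls were 3, 3 and 6 without GF-WT replicates 1, 2 and 3 and 2, 1 and 14 without CONV-WT replicates 1, 2 and 3. The kinase Dclk1 had 406, 325 and 506 in GF-WT and 1526, 1704 and 572 in CONV-WT (log2 fold change 1.62, SE 0.44, adjusted p 0.00255), with adjusted p of 0.0216 without GF-WT replicate 1, 0.0455 without GF-WT replicate 2, 0.0267 without CONV-WT replicate 1 and 0.0548 without CONV-WT replicate 2. The taste channel Trpm5 had 346, 349 and 435 in GF-WT and 1069, 1439 and 397 in CONV-WT and was not called (log2 fold change 1.36, SE 0.46, adjusted p 0.021, and 1.74, SE 0.22, adjusted p 8.05e-14 without CONV-WT replicate 3). In both, CONV-WT replicates 1 and 2 lay well above GF-WT, and replicate 3 lay close to it. Fyb, an adaptor of immune and tuft cells, was the only tuft member called in every one of these fits, at 114, 134 and 168 in GF-WT and 569.8, 684 and 502 in CONV-WT (log2 fold change 2.08, SE 0.25, adjusted p 1.02e-14). The published tuft signature had 47 of 480 members higher and 26 lower, with higher calls of 23, 25 and 34 without GF-WT replicates 1, 2 and 3 and 23, 17 and 97 without CONV-WT replicates 1, 2 and 3 and lower calls of 14, 11 and 13 without GF-WT replicates 1, 2 and 3 and 19, 10 and 66 without CONV-WT replicates 1, 2 and 3. Members of that signature called in every one of these fits numbered 16 higher and 9 lower. Among them Bmp2 fell from 839, 1028 and 1327 to 168, 109 and 177 (log2 fold change -2.82, SE 0.30, adjusted p 1.75e-18). Fn1, fibronectin, rose from 21.4, 15.7 and 9.66 to 1125, 417 and 142 (log2 fold change 5.17, SE 0.70, adjusted p 3.44e-11), and Pla2g16, a phospholipase, had 749, 813 and 585 in GF-WT and 1943, 2131 and 1777 in CONV-WT (log2 fold change 1.45, SE 0.20, adjusted p 1.26e-10).

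Phospholipases A2 and relatives of pancreatic lipase were examined as 1 list, of which 5 of 12 were higher and 1 lower, and 3 were higher without CONV-WT replicate 2. Pla2g4c (chr7:13311507-13360674) had 18.1, 20.97 and 28.2 in GF-WT and 8923, 2698 and 3808 in CONV-WT, a 229-fold difference (log2 fold change 7.84, SE 0.50, adjusted p 4.15e-52). Pnliprp2 (chr19:58759723-58777534), a galactolipase, had 18.1, 17.97 and 40.1 in GF-WT and 1342, 619 and 197 in CONV-WT (log2 fold change 4.82, SE 0.67, adjusted p 1.05e-10). Neither overlapped between the groups. Pla2g4f fell from 267, 204 and 146 to 54.3, 25.02 and 21.4 (log2 fold change -2.59, SE 0.45, adjusted p 5.68e-07). The pancreatic cofactor Clps rose as well, with 88.7, 119.8 and 97.4 in GF-WT and 1628, 1087 and 452 in CONV-WT (log2 fold change 3.37, SE 0.46, adjusted p 6.11e-11). Summed acinar markers were 7.47 to 9.96 CPM in GF-WT and 29.8 to 109 in CONV-WT. Of 3 tested acinar markers 1 was called higher (2 without CONV-WT replicate 3), and 2 had a positive log2 fold change. Their median difference from the GF-WT mean was 2.00, 2.14 and -0.23 in CONV-WT replicates 1, 2 and 3. Cela2a was lower in CONV-WT in the fit without CONV-WT replicate 3 (log2 fold change -5.12, SE 1.92, adjusted p 0.0285). Of 10 such markers 5 were at 0 in all libraries, and Prss2 and Cel had at most 4.17 normalized counts in any of the 6. The part of acinar RNA in Pnliprp2 was not tested.

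Enteroendocrine genes held 0 of 23 members higher (2 without GF-WT replicate 3 and 1 each without CONV-WT replicates 1 and 3) and 1 lower, Scg2, with adjusted p of 0.0958 without GF-WT replicate 1, 0.0636 without GF-WT replicate 2, 0.109 without GF-WT replicate 3, 0.0142 without CONV-WT replicate 1, 0.0882 without CONV-WT replicate 2 and 0.014 without CONV-WT replicate 3. Chga, a granule protein of these cells, had 283, 301 and 803 in GF-WT and 353, 424 and 485 in CONV-WT (log2 fold change -0.14, SE 0.45, adjusted p 0.878), and the hormone Gcg had 412, 365 and 560.3 in GF-WT and 313, 252 and 245 in CONV-WT (log2 fold change -0.72, SE 0.26, adjusted p 0.0305). The groups overlapped for Chga. The published enteroendocrine signature had 10 of 140 members higher and 7 lower, together 12.1%, close to the 11% of all tested genes, and higher calls were 2, 2 and 5 without GF-WT replicates 1, 2 and 3 and 8, 2 and 10 without CONV-WT replicates 1, 2 and 3 and lower calls 3, 1 and 2 without GF-WT replicates 1, 2 and 3 and 3, 1 and 7 without CONV-WT replicates 1, 2 and 3. The somatostatin receptor Sstr1 fell from 1711, 1379.5 and 2249 to 220.1, 305 and 72.03 (log2 fold change -3.15, SE 0.50, adjusted p 2.12e-08), and Cdk2ap1 (log2 fold change 1.16, SE 0.18, adjusted p 1.21e-08) and the lipid carrier Fabp5 (log2 fold change 1.89, SE 0.34, adjusted p 2.16e-06) rose.

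Receptors and sensors of microbes held 2 of 22 members higher and 1 lower (2 without CONV-WT replicate 3), with a median of -0.26. The share called was 13.6%, near the 11% of all tested genes. Nod2, which detects muramyl dipeptide of bacterial cell walls, had 23.8, 53.2 and 50.5 in GF-WT and 158, 189 and 158 in CONV-WT (log2 fold change 1.98, SE 0.36, adjusted p 2.41e-06). Ffar2, a receptor for short-chain fatty acids, had 177, 294 and 389 in GF-WT and 839, 1262 and 1012 in CONV-WT (log2 fold change 1.85, SE 0.35, adjusted p 4.75e-06). The groups did not overlap in either. The lipopolysaccharide receptor Tlr4 had 325, 327 and 486 in GF-WT and 498, 293 and 162 in CONV-WT (log2 fold change -0.25, SE 0.44, adjusted p 0.751), and the flagellin receptor Tlr5 had 88.7, 204 and 259 in GF-WT and 33.2, 119.9 and 119 in CONV-WT (log2 fold change -1.03, SE 0.59, adjusted p 0.227). Tlr1 was the member called lower (log2 fold change -1.28, SE 0.29, adjusted p 0.000292), with adjusted p of 0.0136 without GF-WT replicate 1, 0.0104 without GF-WT replicate 2 and 0.011 without CONV-WT replicate 2. Chemokines, cytokines and IgA transport held 0 of 17 higher (1 without CONV-WT replicate 3) and 3 lower, with lower calls of 1, 1 and 3 without GF-WT replicates 1, 2 and 3 and 2, 2 and 4 without CONV-WT replicates 1, 2 and 3. Il22ra1, the receptor subunit for IL-22, had 1248, 1593 and 2301 in GF-WT and 531, 629 and 693 in CONV-WT (log2 fold change -1.47, SE 0.29, adjusted p 1.49e-05). Pigr, which carries IgA into the lumen, had 143384, 112704 and 92753 in GF-WT and 145730.0, 141272 and 85555 in CONV-WT and was not called (log2 fold change 0.09, SE 0.30, adjusted p 0.873).

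Genes of antigen presentation and interferon response had negative medians, with few calls. MHC class II genes had 0 of 7 members higher and 1 lower, with a median of -1.16, and MHC class I genes 0 of 10 higher and 2 lower, with a median of -0.92. The MHC class II call, H2-Eb1, had adjusted p under 0.01 only without CONV-WT replicate 3 among the fits that left out 1 library, and MHC class I calls were 0, 0 and 0 without GF-WT replicates 1, 2 and 3 and 1, 2 and 3 without CONV-WT replicates 1, 2 and 3. The invariant chain Cd74 had 74.8, 58.4 and 152 in GF-WT and 25.1, 65.7 and 21.4 in CONV-WT (log2 fold change -1.33, SE 0.59, adjusted p 0.0964), and H2-Ab1 had 18.9, 33.7 and 72.8 in GF-WT and 10.05, 23.98 and 42.8 in CONV-WT (log2 fold change -0.74, SE 0.70, adjusted p 0.515). B2m, the light chain of MHC class I, had 5536, 4922 and 6452 in GF-WT and 3039.9, 3503 and 2204 in CONV-WT (log2 fold change -0.95, SE 0.25, adjusted p 0.00167), with adjusted p of 0.0261 without GF-WT replicate 1, 0.0121 without GF-WT replicate 2, 0.0463 without GF-WT replicate 3 and 0.0178 without CONV-WT replicate 1. Its groups did not overlap. H2-D1 had 3108, 3412 and 3309.9 in GF-WT and 2878, 2669 and 1244 in CONV-WT and was not called (log2 fold change -0.53, SE 0.34, adjusted p 0.3). Interferon-stimulated genes held 1 of 28 members higher (2 without GF-WT replicate 1) and 2 lower, with a median of -0.85. The share called was 10.7%, close to the 11% of all tested genes. Lower calls were 0, 1 and 2 without GF-WT replicates 1, 2 and 3 and 0, 0 and 15 without CONV-WT replicates 1, 2 and 3. Isg15 had 205, 54.7 and 38.6 in GF-WT and 18.1, 14.6 and 111 in CONV-WT (log2 fold change -1.07, SE 0.90, adjusted p 0.451, and -2.59, SE 0.73, adjusted p 0.00264 without CONV-WT replicate 3) and Ifit1 219, 143 and 178 in GF-WT and 22.1, 63.6 and 296 in CONV-WT (log2 fold change -0.51, SE 0.79, adjusted p 0.719, and -2.06, SE 0.45, adjusted p 5.37e-05 without CONV-WT replicate 3). In both, CONV-WT replicates 1 and 2 lay below GF-WT and replicate 3 lay within or above it. Mx1, which RefSeq lists as a transcribed pseudogene in this build, went the other way, with 64.1, 20.2 and 17.1 in GF-WT and 224, 316 and 138 in CONV-WT (log2 fold change 2.75, SE 0.58, adjusted p 6.35e-05).

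Circadian clock genes held 8 of 18 members lower and 1 higher, with a median of -0.88. Lower calls were 8, 5 and 2 without GF-WT replicates 1, 2 and 3 and 2, 2 and 8 without CONV-WT replicates 1, 2 and 3. Per3, a repressor of the clock, had 523, 418 and 807 in GF-WT and 133, 80.3 and 31.1 in CONV-WT (log2 fold change -2.82, SE 0.51, adjusted p 2.07e-06). Nfil3, a repressor that opposes the PAR bZIP activators, had 99.4, 104.1 and 30.5 in GF-WT and 453, 294 and 582 in CONV-WT (log2 fold change 2.505, SE 0.50, adjusted p 2.17e-05). All CONV-WT values lay on 1 side of GF-WT in both. Tef, a PAR bZIP activator, had 373, 949.6 and 2987 in GF-WT and 181, 177 and 391 in CONV-WT (log2 fold change -2.53, SE 0.70, adjusted p 0.0036), with adjusted p of 0.0114 without GF-WT replicate 2, 0.101 without GF-WT replicate 3, 0.0215 without CONV-WT replicate 1, 0.0374 without CONV-WT replicate 2 and 0.0157 without CONV-WT replicate 3. CONV-WT replicate 3 lay just above the lowest GF-WT library, so that the groups overlapped in Tef. The core activator Arntl had 1166, 813 and 351 in GF-WT and 832, 719 and 1012 in CONV-WT (log2 fold change 0.14, SE 0.44, adjusted p 0.874) and the repressor Per2 359.8, 250.1 and 803 in GF-WT and 472, 314 and 152 in CONV-WT (log2 fold change -0.59, SE 0.55, adjusted p 0.511), and both overlapped between the groups. The GF-WT libraries differed widely among themselves, with a median difference of the list from the GF-WT mean of -0.28, -0.08 and 0.54 in GF-WT and -1.06, -1.21 and -0.89 in CONV-WT. The hour of collection was not in the labels, so that time of day and microbial state cannot be told apart.

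The E-box CACGTG, which the core clock factors bind, was searched in the same windows, since 9 clock genes were called. It was present in 5 of 20 windows of the list (25.0%) and in 7.15% of all windows. The windows that hold it belong to Ciart, Cry1, Per1 and Tef, and of 9 called members with a window 3 hold it. The window of Tef, a called member that holds it, is shown from the plus strand at chr15:81802423-81802722, 1 of 2 windows of this gene, with the E-box in capitals.
Tef: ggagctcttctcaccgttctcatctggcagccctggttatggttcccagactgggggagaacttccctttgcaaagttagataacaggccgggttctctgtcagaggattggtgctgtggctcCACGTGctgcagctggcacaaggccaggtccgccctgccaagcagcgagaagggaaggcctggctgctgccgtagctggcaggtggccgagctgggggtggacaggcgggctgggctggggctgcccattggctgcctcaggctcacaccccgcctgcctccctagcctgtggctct

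The noncoding RNAs Meg3 (chr12:109540996-109571729) and Rian (chr12:109603945-109661716), imprinted neighbours on chromosome 12, showed the largest increases among genes that met the rule for named genes. Meg3 had 1.64, 0 and 4.46 in GF-WT and 1371, 3168 and 783 in CONV-WT (adjusted p 2.47e-30). Rian had 1.64, 0.749 and 0 in GF-WT and 557, 883 and 121 in CONV-WT (adjusted p 1.93e-15). No fold is given for either gene because GF-WT held so few of their reads. Both were near 0 in every GF-WT library and above 100 normalized counts in every CONV-WT library. The metallothionein Mt3 rose from 6.57, 23.97 and 17.8 to 189.9, 288 and 146 (log2 fold change 3.69, SE 0.50, adjusted p 2.43e-11).

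Genes of energy metabolism were examined next. Fatty acid oxidation and ketogenesis held 0 of 31 members higher and 5 lower, with a median of -0.42, and lower calls were 0, 0 and 1 without GF-WT replicates 1, 2 and 3 and 0, 1 and 13 without CONV-WT replicates 1, 2 and 3. Cpt1a, which admits fatty acids to mitochondria, had 7668, 8695 and 9722 in GF-WT and 4649.8, 5608 and 2801 in CONV-WT (log2 fold change -0.998, SE 0.30, adjusted p 0.00915), with adjusted p of 0.0319 without GF-WT replicate 1, 0.0785 without GF-WT replicate 2, 0.101 without GF-WT replicate 3 and 0.0352 without CONV-WT replicate 1. Cholesterol and fatty acid synthesis held 1 of 28 members higher (Me1) and 1 lower (Insig1). The higher call was lost without CONV-WT replicate 3, and lower calls were 1, 0 and 0 without GF-WT replicates 1, 2 and 3 and 3, 0 and 4 without CONV-WT replicates 1, 2 and 3. Fasn, the fatty acid synthase, had 7371, 5871 and 4364 in GF-WT and 7973, 6534 and 3119 in CONV-WT (log2 fold change 0.00, SE 0.40, adjusted p 0.999), and its groups overlapped.

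Signs of tissue handling and of other cells were read beside these results. Immediate early genes held 2 of 17 members higher and 0 lower (11.8%, close to the 11% of all tested genes). In this list 1 was higher without GF-WT replicate 2 or 3, and 3 were higher and 4 lower without CONV-WT replicate 3. Nr4a1 had 39.4, 57.7 and 72.1 in GF-WT and 217, 176 and 140.2 in CONV-WT (log2 fold change 1.66, SE 0.33, adjusted p 2.23e-05), whereas Fos had 987, 1536 and 1326 in GF-WT and 873, 420.2 and 2091 in CONV-WT (log2 fold change -0.19, SE 0.55, adjusted p 0.863) and Egr1 262, 466 and 334 in GF-WT and 322, 93.8 and 236 in CONV-WT (log2 fold change -0.71, SE 0.48, adjusted p 0.324). Summed immune markers were 7.69 to 11.4 CPM in GF-WT and 11.5 to 28.9 in CONV-WT. Of 10 tested immune markers 0 were called by either tool, with 2 at an unadjusted p under 0.05 in DESeq2 and 1 in edgeR. Ptprc had 41.9, 44.9 and 88.4 in GF-WT and 255, 270.0 and 42.8 in CONV-WT (log2 fold change 1.70, SE 0.66, adjusted p 0.0527, and 2.17, SE 0.38, adjusted p 2.57e-07 without CONV-WT replicate 3), and Cd3e had 4.11, 6.74 and 12.6 in GF-WT and 1.00, 4.17 and 9.73 in CONV-WT (log2 fold change -0.77, SE 0.98, adjusted p 0.646). Cd4 and Emr1 were at 0 in all CONV-WT libraries, and Gzma was at 0 in all GF-WT libraries. Summed mesenchymal markers were 20.2 to 25.5 in GF-WT and 13.3 to 26.1 in CONV-WT, but most members of the list had higher values in CONV-WT. The median log2 fold change was 3.33, with 9 of 10 tested members positive, and 8 were at an unadjusted p under 0.05 in DESeq2 and 1 in edgeR. Called were Des and Acta2 (higher) and Pdgfrb (lower), of which none was called in every fit that left out 1 library, with higher calls of 0, 1 and 0 without GF-WT replicates 1, 2 and 3 and 2, 1 and 0 without CONV-WT replicates 1, 2 and 3. The median difference of the list from the GF-WT mean was -0.03, 0.30 and -0.13 in GF-WT and 0.73, 1.77 and 3.62 in CONV-WT, so that CONV-WT replicate 3 had the most. CONV-WT replicate 3 had the most Col1a1 (7.03, 3.13 and 23.4, against 2.46, 6.74 and 0 in GF-WT), and the collagen Col1a2 was at 0, 7.30 and 9.73 in CONV-WT and at 0 in all GF-WT libraries. Endothelial markers summed to 7.04 to 12 in GF-WT and 6.46 to 9.38 in CONV-WT, with 0 of 3 tested members called by either tool (1 lower without CONV-WT replicate 3) and 0 at an unadjusted p under 0.05. Glial markers summed to 0.826 to 1.09 and 0.441 to 1.34, with 0 of 2 tested members called, 1 at an unadjusted p under 0.05 in DESeq2 and 0 in edgeR. The part of these cells in the results was not tested. Of 8 epithelial markers Krt18 alone was called, as higher, with adjusted p of 0.0249 without GF-WT replicate 1, 0.0182 without GF-WT replicate 2, 0.0187 without CONV-WT replicate 1 and 0.0289 without CONV-WT replicate 2, and Epcam had 27352, 31041 and 30935 in GF-WT and 26266, 22354 and 9539 in CONV-WT (log2 fold change -0.62, SE 0.39, adjusted p 0.277). Of genes that differ between C57BL/6 substrains 0 of 3 tested were called by either tool, with 2 at an unadjusted p under 0.05, and 1 was called higher without CONV-WT replicate 3. Nnt, which is disrupted in C57BL/6J, had 562, 467 and 489 in GF-WT and 406, 352 and 267 in CONV-WT (log2 fold change -0.56, SE 0.23, adjusted p 0.069).

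To examine where conventional mice differed from mice colonized for 14 days, CONV-WT was compared with COLONIZED-WT, which shares the CONV-WT libraries. DESeq2 called 16 of 13458 genes (0.119%), and edgeR called 0. At an unadjusted p under 0.05 they gave 1234 and 899 genes. As both comparisons share the CONV-WT libraries, values are given side by side, with normalized counts scaled over the 9 WT libraries. Tgm3 had 1426, 926 and 413 in CONV-WT and 3817, 10437 and 3367 in COLONIZED-WT. In GF-WT it had 39658, 33834 and 26873. The COLONIZED-WT libraries lay between the other groups. Tgm3 differed by -5.18 from GF-WT and by -2.68 (log2, adjusted p 0.00508) from COLONIZED-WT. Lifr differed by -4.76 and -2.135 (adjusted p 0.00652), and the peptidase Naaladl1 by -3.35 and -1.47 (adjusted p 0.000149). Fam221a had 474, 486 and 426 in CONV-WT and 289.6, 226 and 243 in COLONIZED-WT. In GF-WT it had 106, 82.1 and 91.1. It was higher by 2.31 and 0.87 (adjusted p 0.00111). In these 4 genes CONV-WT differed from both other groups. Retnlb had 39302, 28927 and 8618 in CONV-WT against 10780.0, 5106 and 9451 in COLONIZED-WT, and the groups overlapped. Retnlb (adjusted p 0.192 against COLONIZED-WT), Ang4 (0.0648), Bhlha15 (0.244) and Atp12a (0.481) were not called in that comparison. Without CONV-WT replicate 3 it gave 197 calls, and without COLONIZED-WT replicates 2 and 3 it gave 1 and 5.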

How the data were processed

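The authors sequenced poly(A) RNA of isolated colon crypts as 75-base single-end reads from a stranded mRNA kit, aligned them with STAR to mm10 and deposited a table of raw counts per gene, which was used here. The versions of STAR and of the authors' DESeq2, and whether counting used strand, were not given in the sources used here, so that overlapping genes on opposite strands are uncertain. The table held 24047 genes and 0 columns of no sample. Library totals ranged from 8.2 to 23.2 in units of 1e6 counts over the 6 libraries compared, and low totals widen the error of low genes. The labels do not say whether replicates were separate mice, and p-values measure the spread between these samples. A Y-linked pattern in 1 of 3 CONV-WT libraries shows that these were not all from 1 mouse.

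CONV-WT was tested against GF-WT with DESeq2 1.42.0 in R 4.3.3 (Wald test, median-of-ratios size factors, 6 libraries, Benjamini-Hochberg adjustment over all tested genes), and a gene was called at an adjusted p under 0.01, as in the study. All adjusted p are from DESeq2 unless edgeR is named. CONV-WT was tested against COLONIZED-WT in the same way. Alternatives were edgeR 4.0.16 (quasi-likelihood test, TMM), TMM factors in DESeq2, a filter of 10 counts in 3 libraries, no independent or Cook's filtering, an adjusted p under 0.05, each library left out, libraries thinned to the smallest total, all 18 libraries in 1 fit, a sex term and a replicate block. Same-numbered libraries deviated together with r of 0.456, 0.0469 and 0.352 for numbers 1, 2 and 3. The labels gave no pairs, and the main fit did not treat the numbers as pairs. A deviation shared at numbers 1 and 3 was therefore not modelled there.

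Named genes were the 12 largest increases and 12 largest decreases among genes called in every fit that left out 1 library, with a mean of 100 or more normalized counts and no overlap between groups. To these were added the 4 members of each list with the lowest adjusted p among such calls, the first 2 genes of each list written for the comparison, all genes called by edgeR, and genes also called against COLONIZED-WT. Pla2g2a, Reg4, Slpi, Nos2, Gfi1, Foxa3, Tff3, Sec61b, Scnn1g, Cftr, Slc12a2, Gstm3, Hoxa11, Hoxd11, E2f1, Asns, Tef, Scg2, Tlr1 and all other genes outside this rule were chosen after their values were seen. The comparison, the members and the lists were chosen with earlier results of these data known, and the 5 cell type signatures came from the study. RefSeq positions on GRCm38.p6 were found for 168 of 175 named genes. Sequence windows were read from RefSeq promoters of the same build. Some genes, also among those the rule names, are not reported here.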

Additional observations from a re-analysis of the deposited data

Results flagged for a closer look

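Genes called between CONV-WT and GF-WT for which CONV-WT also differed from COLONIZED-WT in a direct DESeq2 test are given here, since the difference from GF-WT was then not the same in conventional mice and in mice colonized for 14 days. Values are log2 fold changes of CONV-WT over COLONIZED-WT. Lower in CONV-WT were Trpv3 (-2.76, adjusted p 0.00763), 5033404E19Rik (-2.71, adjusted p 4.76e-08), the transglutaminase Tgm3 (-2.68, adjusted p 0.00508), the cytokine receptor Lifr (-2.135, adjusted p 0.00652), the peptidase Naaladl1 (-1.47, adjusted p 0.000149), Dgat2, which makes triglycerides (-1.04, adjusted p 0.00294), and Dock6 (-0.91, adjusted p 0.000149). Higher were the cytokine signalling inhibitor Socs2 (0.95, adjusted p 0.00763), Fam221a (0.87, adjusted p 0.00111) and the translation factor Eif1a (0.45, adjusted p 0.00902). Against GF-WT, Dgat2 was called in 4 of the 6 fits that left out 1 library, 5033404E19Rik in 2, and Eif1a and Socs2 in 1 each.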

How the results depend on the processing

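CONV-WT against GF-WT gave 1521 calls with DESeq2 (788 higher, 733 lower) and 22 with edgeR (9 higher, 13 lower). An adjusted p under 0.05 gave 2608 (1383 higher, 1225 lower), and a sex term 922 (413 higher). Leaving out 1 library gave 592 to 2868 calls (259 to 1447 higher, 333 to 1421 lower). The replicate block, which treats same-numbered libraries as pairs, gave 1275 calls. Of the 1521 calls 1004 (66%) were among these. CONV-WT against COLONIZED-WT gave 16 calls, 0 with edgeR and 1 to 197 with 1 library left out. The other settings moved these counts by less than 1.5 times. Of the 1521 calls, 464 held in every fit that left out 1 library. Most named genes were chosen for this, so their own stability is not given. The cause of the gap between the tools was not tested.

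Signs that changed all belonged to genes that were not called. Fcgbp was -0.38 with the replicate block and -0.48 with the sex term, Pigr -0.036 with the sex term, and Fasn -0.00091 with TMM factors, -0.071 with the block and -0.28 with the sex term. Krt20 was 0.0050 with the sex term and Chga 0.031 with the block. With 1 library left out, log2 fold changes ranged from -0.48 to 0.54 (Fcgbp), -0.73 to 0.070 (Tlr4), -0.043 to 0.31 (Pigr), -2.59 to 0.0080 (Isg15), -0.68 to 0.0997 (Dnajb9), -0.28 to 0.32 (Fasn), -0.036 to 1.10 (Cyp2c55), -1.39 to 0.30 (Krt20), -1.75 to 0.062 (Cldn4), -0.40 to 0.52 (Chga), -0.21 to 0.55 (Arntl), -1.01 to 0.042 (Per2) and -0.98 to 0.21 (Fos). Depth limits genes near 0 in the shallow CONV-WT libraries.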
